A study of Mus musculus with 6 samples.

Results

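The genes described here are 10 genes of the secretory, or alveolar, luminal lineage of the mouse mammary gland, picked by name from the 34590 gene symbols of a count table. They are the progenitor regulators Kit, Elf5 and Aldh1a3, the milk proteins Csn2, Csn3, Wap and Lalba, the antimicrobial proteins Ltf and Lcn2, and the milk fat globule protein Mfge8. RNA was sequenced from 3 pairs of contralateral number 4 mammary glands of WT hosts, whose own epithelium had been surgically removed and replaced with donor epithelium. In each host the left gland carried WT.EGFP+ epithelium and the right gland carried Adamts18-/-.EGFP+ epithelium, so that 3 WT and 3 Adamts18-/- libraries were compared. Adamts18 encodes a secreted metalloprotease, and the Adamts18-/- allele lacks exons 8 and 9. In both groups the donors carried an EGFP transgene under the chicken beta-actin promoter. The Adamts18-/- and EGFP lines were kept on a C57BL/6JOlaHsd background, and the strain of the WT hosts was not given in the sources used here. Hosts were grafted at 3 weeks of age per the study's transplantation methods, and the age and reproductive stage of these 6 glands at harvest were not given in the sources used here. The genotype and the side of the body cannot be told apart, nor can the mouse, the donor and the experiment.

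Secretory luminal cells descend from luminal progenitors that express Kit, a receptor tyrosine kinase, and depend on Elf5, an Ets transcription factor. In pregnancy, prolactin acts through its receptor, the kinase Jak2 and the transcription factor Stat5 to turn on caseins and whey proteins, and Elf5 is part of this program. Low levels of some milk protein transcripts are found in the ducts of glands that do not lactate.

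The libraries held 53875123 to 71595924 assigned reads, so that the 3 reads taken as a detection floor were worth 0.0419 to 0.0557 CPM (counts per 1000000 assigned reads). In mice 1, 2 and 3, Adamts18 itself measured 3.61, 9.92 and 6.80 CPM on the WT side and 2.75, 4.87 and 3.29 CPM on the Adamts18-/- side, lower in each pair. Counts per gene do not resolve the deleted exons, and the WT fat pad can also supply this transcript. The labels describe sorted GFP+ mammary epithelial cells, whereas the study's text describes profiling of engrafted glands, and the libraries held markers of other cells at high levels. The 7 adipocyte markers summed to between 4333 and 12041 CPM, the 6 fibroblast markers to between 8015 and 10870 CPM, and the 12 pan-epithelial markers to between 1069 and 2089 CPM. Of the markers in 13 cell type lists, 0 were without reads in every library. Muscle markers differed widely between libraries, at 257 and 9767 CPM in the WT and Adamts18-/- glands of mouse 1, 753 and 9580 CPM in mouse 2, and 2467 and 1661 CPM in mouse 3. In such libraries, fewer cells of a type and less RNA per cell cannot be told apart.

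Promoter sequence was at hand for 8 of the 10 genes (RefSeq, GRCm38.p6), and the 250 bases before each annotated start were read for the letters TTCNNNGAA, the palindromic core that Stat5 recognises, which reads the same on both strands. Csn2, the beta-casein gene, held 1 match, TTCTTGGAA, whose first base lies 93 bases before the start. The windows of Lalba, Wap, Lcn2, Ltf, Mfge8, Kit and Elf5 held 0 matches, with 2 windows each for Kit and Elf5. Of all 32851 promoter windows of this length, 7.02% held the letters. The 3 milk protein promoters are shown because they belong to the casein or whey genes whose levels are set side by side next, with the matching letters in capitals.
Csn2, chr5:87699426-87699675 (minus strand): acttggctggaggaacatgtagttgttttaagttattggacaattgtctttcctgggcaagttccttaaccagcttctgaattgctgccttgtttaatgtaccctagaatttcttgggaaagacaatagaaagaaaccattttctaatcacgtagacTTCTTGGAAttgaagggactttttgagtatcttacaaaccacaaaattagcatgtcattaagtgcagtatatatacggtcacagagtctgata
Lalba, chr15:98482684-98482933 (minus strand): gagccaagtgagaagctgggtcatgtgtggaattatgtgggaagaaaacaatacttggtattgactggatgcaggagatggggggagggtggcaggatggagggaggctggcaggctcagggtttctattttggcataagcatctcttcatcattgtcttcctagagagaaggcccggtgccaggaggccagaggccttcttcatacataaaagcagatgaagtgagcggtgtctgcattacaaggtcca
Wap, chr11:6638650-6638899 (minus strand): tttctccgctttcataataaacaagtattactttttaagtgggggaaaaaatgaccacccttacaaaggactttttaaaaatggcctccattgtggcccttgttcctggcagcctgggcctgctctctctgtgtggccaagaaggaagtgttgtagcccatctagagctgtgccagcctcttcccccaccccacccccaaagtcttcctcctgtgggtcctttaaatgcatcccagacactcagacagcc
A match describes letters in this window and does not show binding of a factor.

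Transcript levels of the 10 genes spanned a wide range (CPM per kilobase of the longest annotated transcript in GENCODE M21). Mfge8 stood highest with a mean of 224 CPM per kilobase over 6 glands and a range of 180 to 312. It was followed by Lcn2 with a mean of 142 and a range of 89.7 to 259 CPM per kilobase. The Lcn2 range overlapped that of Mfge8 and, at its lower end, that of Ltf. Csn3, Ltf, Elf5 and Kit came next and could not be ordered, since their ranges overlapped around means of 38.5, 35.6, 33.5 and 31.9 CPM per kilobase. Aldh1a3 had the lower mean of 19.7 CPM per kilobase, but its range of 10.5 to 25.4 overlapped those of Csn3, Ltf, Elf5 and Kit. Beta-casein (Csn2) averaged 4.78 CPM per kilobase with a range of 1.44 to 10.9, which touched that of Aldh1a3, and kappa-casein (Csn3), with a range of 23.2 to 59.1, lay above it in every gland. The whey genes were at the bottom, Lalba at a mean of 0.568 CPM per kilobase, with each gland below each gland of Csn2, and Wap at 0.0146. Wap, the whey acidic protein gene, had 3 reads in all 6 libraries together and at most 1 read in a library. This is below the detection floor, and no fold change is given for it. Csn3 has annotated transcripts of 991 to 1596 bases and Elf5 of 965 to 2532 bases, so a level per kilobase depends on the transcript assumed.

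**Figure D1:**
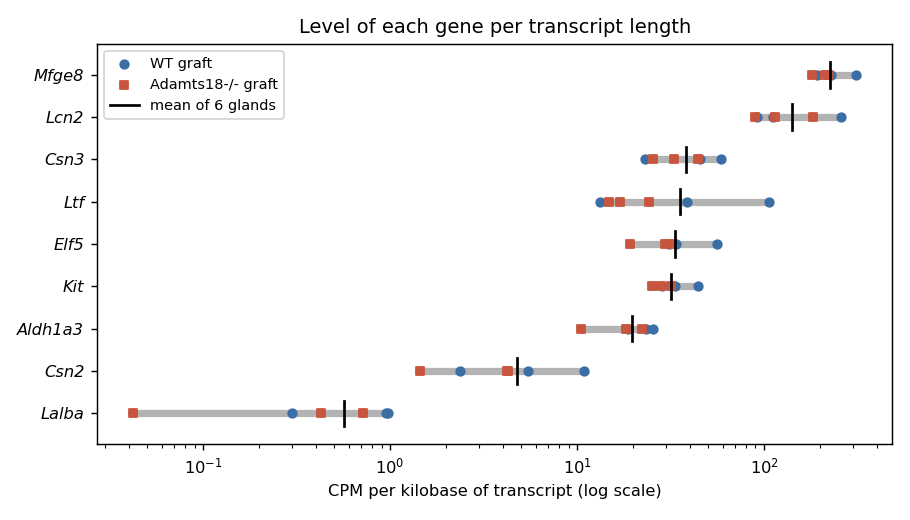
CPM per kilobase of the longest annotated transcript (log axis) in each of the 6 glands, for the 9 genes with more than 3 reads in total. Circles are WT grafts, squares Adamts18-/- grafts, grey bars the range and black lines the mean. Mfge8 and Lcn2 form the top, Lalba the bottom, and WT and Adamts18-/- glands overlap for each gene.

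Of the progenitor regulators, Elf5 was the member that passed the study's thresholds, which ask for an unadjusted p below 0.05 and a fold change below 0.8 or above its inverse. In mice 1, 2 and 3, Elf5 measured 78.8, 141 and 85.5 CPM on the WT side and 79.2, 75.2 and 48.7 CPM on the Adamts18-/- side. The WT gland of mouse 2 was the highest, the pair of mouse 1 was level, and the groups overlapped. The means were 102 ± 34.4 and 67.7 ± 16.5 CPM (SD, n = 3 each). The fitted log2 fold change, Adamts18-/- over WT with the mouse as a block, was -0.57 with a standard error of 0.20 (edgeR quasi-likelihood test, unadjusted p = 0.0389, adjusted p = 0.987). The call was lost without the block (unadjusted p = 0.0895, edgeR), without mouse 2 (0.169) and without mouse 3 (0.0955), and the unadjusted p was 0.00181 without mouse 1. After adjustment over all genes, 0 members passed.

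Kit, which is also a marker of mast cells and melanocytes, measured 149, 234 and 176 CPM in WT glands and 166, 148 and 131 CPM in Adamts18-/- glands. The group ranges overlapped, with the WT gland of mouse 2 the highest and the Adamts18-/- gland of mouse 3 the lowest. Over the 3 pairs the log2 fold change was -0.31 with a standard error of 0.17 (unadjusted p = 0.137, edgeR). The 8 mast cell markers summed to 317 to 544 CPM in WT and 235 to 544 CPM in Adamts18-/- glands, 0 of the 8 passed the thresholds, and the 5 melanocyte markers summed to at most 4.62 CPM in any gland. Of these, Mlana was lower past the thresholds, at 2.25 to 2.97 CPM in WT and 1.24 to 1.96 CPM in Adamts18-/- glands (log2 fold change -0.69, unadjusted p = 0.0359, edgeR). The part of mast cells and melanocytes in the Kit level was not tested.

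Aldh1a3, a retinaldehyde dehydrogenase of luminal progenitors, measured 64.5, 87.6 and 80.1 CPM in WT glands and 76.5, 63.0 and 36.0 CPM in Adamts18-/- glands. In mouse 1 the Adamts18-/- gland was the higher of the pair and in mouse 3 it was the lowest of all 6. The fitted log2 fold change was -0.46 with a standard error of 0.27 (unadjusted p = 0.159, edgeR), a difference within the spread between pairs.

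The caseins, which form the micelles of milk, did not pass the thresholds over the 3 pairs. Csn2 measured 3.15, 14.5 and 7.23 CPM in WT and 5.64, 5.68 and 1.92 CPM in Adamts18-/- glands, again in the order of mice 1, 2 and 3. The within-mouse log2 differences ran from 0.83 in mouse 1 to -1.35 in mouse 2 and -1.89 in mouse 3, so the pair of mouse 1 went against the others. Its fitted log2 fold change was -0.84 with a standard error of 0.59 (unadjusted p = 0.219, edgeR). Csn2 is the member whose promoter window held the Stat5 letters shown above. Csn3, the casein that keeps the micelle in solution, measured 37.0, 94.4 and 73.0 CPM in WT and 40.4, 70.6 and 52.9 CPM in Adamts18-/- glands. Both glands of mouse 1 were below all glands of the other mice. For Csn3 the log2 fold change was -0.25 with a standard error of 0.14 (unadjusted p = 0.134, edgeR).

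Lalba, which encodes alpha-lactalbumin, the whey protein that switches a galactosyltransferase to lactose synthesis, was lower in the Adamts18-/- gland of each pair. Reads were few, with 51, 46 and 13 on the WT side and 29, 20 and 2 on the Adamts18-/- side, or 0.731, 0.750 and 0.231 CPM against 0.555, 0.330 and 0.0325 CPM. The WT gland of mouse 3 was below the Adamts18-/- glands of mice 1 and 2, so the groups overlapped. The log2 fold change of Lalba was -1.11 with a standard error of 0.44 (unadjusted p = 0.0574, edgeR), and with no filter on low counts it was -1.12 and passed the thresholds (unadjusted p = 0.0444). The 2 reads in the Adamts18-/- gland of mouse 3 lie under the floor of 3 reads, so the difference in that mouse is poorly determined.

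The antimicrobial proteins were both highest in the WT gland of mouse 2. Ltf, which encodes the iron-binding milk protein lactoferrin, measured 36.5, 291 and 106 CPM in WT glands and 46.4, 40.5 and 66.6 CPM in Adamts18-/- glands. The WT gland of mouse 2 exceeded the Adamts18-/- gland of that mouse 7.17-fold, whereas the WT gland of mouse 1 was the lowest of all 6. The log2 fold change of Ltf was -1.02 with a standard error of 0.66 (unadjusted p = 0.187, edgeR), and it was -0.17 without mouse 2 and -1.76 without mouse 1. Lcn2, which encodes lipocalin 2, a protein that sequesters bacterial siderophores, measured 83.7, 237 and 103 CPM in WT and 104, 167 and 82.1 CPM in Adamts18-/- glands. Both glands of mouse 2 were above the other 4 glands, and the fitted log2 fold change was -0.17 with a standard error of 0.18 (unadjusted p = 0.376, edgeR).

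Both proteins are also stored in neutrophil granules. The 12 neutrophil markers summed to 40.5 to 58.6 CPM in WT and 42.4 to 55.5 CPM in Adamts18-/- glands. The lowest sum, 40.5 CPM, was that of the WT gland of mouse 2. Mmp9 and Csf3r, at 19.6 to 33.7 CPM and 10.9 to 17.6 CPM across glands, made up most of each sum. S100a8 and S100a9 were at 0.835 to 2.51 CPM, Elane at 0.337 to 1.04 CPM and Mpo at 0.0326 to 1.04 CPM. Ngp was at 0.0326 to 0.927 CPM, Camp at 0 to 0.260 CPM and Ly6g at 0 to 0.0325 CPM. In the WT gland of mouse 2, where Ltf and Lcn2 were highest, Elane was also at its highest, whereas Mpo and Ngp were at their lowest. The part of neutrophils in the Ltf and Lcn2 levels was not tested.

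Mfge8, a secreted protein that coats milk fat globules and bridges phosphatidylserine to integrins, had the narrowest range of the tested members, 1.73-fold from the lowest to the highest gland. It measured 406, 662 and 488 CPM in WT glands and 383, 453 and 466 CPM in Adamts18-/- glands. The Adamts18-/- gland was the lower of each pair, yet the differences in mice 1 and 3 were small (log2 -0.086 and -0.067) and the groups overlapped. The fitted log2 fold change was -0.23 with a standard error of 0.14 (unadjusted p = 0.152, edgeR). Macrophages also make Mfge8. Their 8 markers summed to 1735 CPM in the WT gland of mouse 2, the lowest of the 6 glands, where Mfge8 was highest, and the part of macrophages in the Mfge8 level was not tested.

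**Figure D2:**
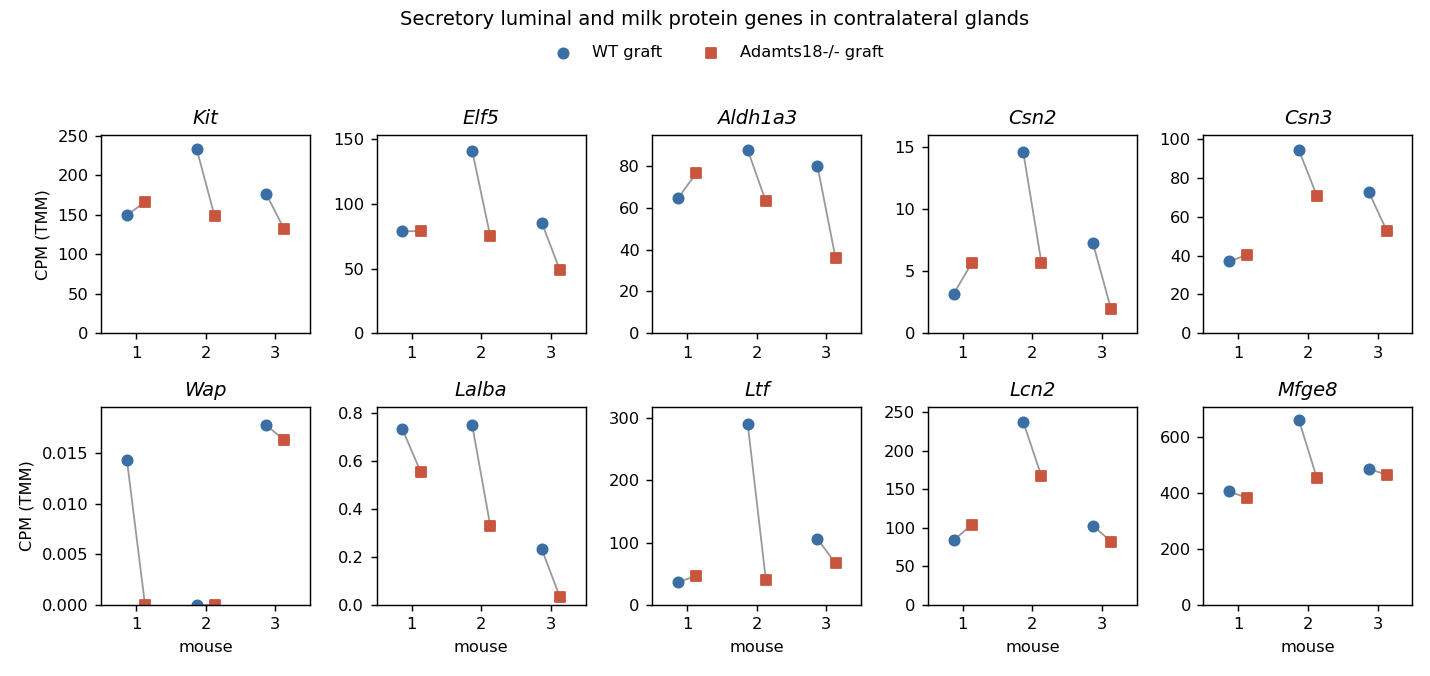
CPM (linear axes from 0) of the 10 genes in each pair of contralateral glands. Circles are WT grafts, squares Adamts18-/- grafts and lines join the glands of 1 mouse. In mouse 1 the Adamts18-/- gland is the lower for 2 of 9 tested genes and in mice 2 and 3 for 9 of 9, and the WT gland of mouse 2 is the highest for 9 of 9 tested genes. The Wap panel rests on 3 reads.

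Taken as a list, 9 of the 10 genes passed the filter on low counts, 1 of these 9 was lower past the thresholds, against 1.84% of the 17345 genes tested, and 0 were higher, against 1.17% (edgeR; DESeq2 also called 1 lower and 0 higher, and limma-voom as well). At an adjusted p under 0.05 edgeR called 0 members, 1 had an unadjusted p under 0.05, and DESeq2 called 0. The fitted log2 fold change was below 0 for 9 of 9 members, against 49.8% of all genes, with a median of -0.46 against 0.00065 over all genes. Within the pairs, 2 of 9 members were lower in the Adamts18-/- gland of mouse 1, against 52.5% of all genes. In mice 2 and 3, 9 of 9 were lower, against 50.8% of all genes in each. The 2 that were lower in all 3 mice, against 12.7% of genes, were Lalba and Mfge8. The groups overlapped for 9 of 9 members, whereas 2.63% of genes had all WT glands above all Adamts18-/- glands. The WT gland of mouse 2 was the highest of the 6 for 9 of 9 members, against 14.7% of all genes. This was not particular to the members, since all 9 myoepithelial markers were also highest in that gland. Of those 9 markers, 8 were lower past the thresholds, against 1.84% of all genes, and their median log2 fold change was -0.54. These members share libraries and hosts and are not replicates of the genotype.

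The count of calls rested on which mice were in the fit. Without mouse 1, 8 of 9 members were lower past the thresholds, against 2.73% of genes in that fit, with the smallest change that of Lcn2 (log2 fold change -0.42). Mfge8 was the exception. Without mouse 2 or without mouse 3, 0 members passed.

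Epithelial markers also differed within pairs, although as a mean they were highest in the WT gland of mouse 3 and not in that of mouse 2. The geometric mean of the 12 pan-epithelial genes was 68.0, 90.8 and 107 CPM on the WT side of mice 1, 2 and 3, and 70.5, 52.3 and 76.8 CPM on the Adamts18-/- side. The Adamts18-/- gland thus held 1.04, 0.576 and 0.718 times the WT level, level in mouse 1 and lower in mice 2 and 3, the same mice in which the 9 members were lower. Of the 12 genes, 4 were lower past the thresholds, against 1.84% of all genes, including the luminal keratin Krt18 with a log2 fold change of -0.52 (unadjusted p = 0.0161, edgeR).

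Set against this epithelial level within each pair, the members parted. Kit, Csn3 and Lcn2 were higher in the Adamts18-/- gland of all 3 mice, against 29.4% of genes, with log2 differences of at most 0.38. Elf5 and Lalba were lower in all 3 mice, against 0.663% of genes. In mice 1, 2 and 3 Elf5 differed by log2 -0.044, -0.12 and -0.33 and Lalba by -0.45, -0.39 and -2.35. The Lalba value of mouse 3 rests on 2 reads in the Adamts18-/- gland, under the floor. The lower epithelial level in the Adamts18-/- glands of mice 2 and 3 moves all genes upward on this scale. Both shares reflect that shift and do not show how unusual a member is, and the Elf5 differences in mice 1 and 2 were small. The pair differences of Ltf (0.30, -2.05 and -0.19) and Csn2 (0.79, -0.56 and -1.43) kept opposite signs between mouse 1 and the other mice. Mfge8 (-0.14, 0.25 and 0.41) and Aldh1a3 (0.19, 0.32 and -0.67) also changed sign between mice.

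When the libraries were scaled to the 12 epithelial genes before the fit, 5 of 9 members had a log2 fold change below 0, and Elf5 stood at -0.16 (unadjusted p = 0.653, edgeR). When they were scaled to Krt18, 4 of 9 were below 0, and Elf5 stood at -0.054 (unadjusted p = 0.843, edgeR). These scalings raised the median of all genes by 0.41 and 0.52, and the members' own median was -0.051 and 0.059. A scaling shifts all genes by nearly the same amount. The members' median relative to that of all genes, -0.46, was therefore the same on each scale by construction and tests nothing. On the library scale the median log2 fold change of the 12 epithelial genes was -0.39.

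**Figure D3:**
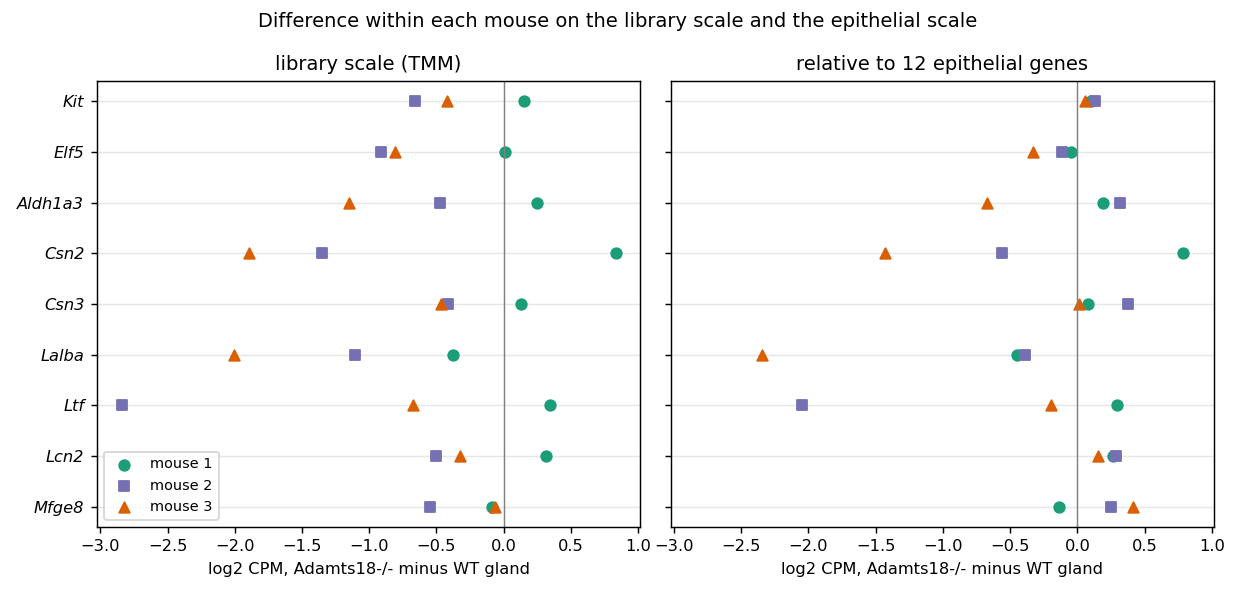
Log2 difference, Adamts18-/- minus WT gland, within each of the 3 mice for the 9 tested genes, on the library scale (left) and relative to the geometric mean of 12 pan-epithelial genes (right). On the left mice 2 and 3 lie below 0 for 9 of 9 genes; on the right Kit, Csn3 and Lcn2 lie above 0 in each mouse and Elf5 and Lalba below.

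Levels were also compared between the 3 hosts. The mouse term of the same fit called 0 of 9 members at an adjusted p under 0.05, against 0.628% of genes (edgeR). The nearest were Csn3 (adjusted p = 0.0786) and Lcn2 (0.0794), both called by DESeq2, which called 20.4% of the genes it gave an adjusted p. Averaged over the pair, Csn3 was at 38.7, 82.5 and 62.9 CPM and Lcn2 at 93.9, 202 and 92.3 CPM in mice 1, 2 and 3. Lalba went the other way for mouse 3, at 0.643, 0.540 and 0.132 CPM.

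The levels of the members varied together over the 6 glands, which is given as a description since the glands come from 3 hosts and share the epithelial level. Pearson's r of log2 CPM over the 36 pairs of tested members had a median of 0.715 and ranged from -0.029 for Csn3 with Lalba to 0.955 for Kit with Elf5. Csn2 followed Kit (0.932) and Elf5 (0.932) more closely than Csn3 (0.692), the other casein. Kit and both caseins lie on chromosome 5, and Elf5 lies on chromosome 2. With the epithelial level the members' r ran from -0.095 for Lalba to 0.723 for Ltf. Among all 17345 genes, the 5 of highest r with Elf5 were Gm2885 (0.994), Rep15, Dynlrb1, Trp53bp2 and Fam83b. For Csn2 they were Rph3al (0.987), Hes1, Phldb2, Smpdl3b and Intu. For Lcn2 they were Fbxo32 (0.992), 2310003F16Rik, Gm5069, 6230409E13Rik and Pawr. These are ranks among many genes over 6 glands, and no p is given.

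Other genes of milk production were read from a list of 20, of which 19 were tested, 2 were lower past the thresholds and 0 higher, against 1.84% and 1.17% of all genes. Leaving out mice 1, 2 and 3 in turn gave 5, 1 and 4 genes of this list past the thresholds. Btn1a1, which encodes butyrophilin, the major membrane protein of the milk fat globule, measured 93.9, 145 and 57.7 CPM in WT glands and 49.2, 69.3 and 16.7 CPM in Adamts18-/- glands. It was lower in each pair, although the WT gland of mouse 3 lay below the Adamts18-/- gland of mouse 2. Its log2 fold change was -1.26 with a standard error of 0.19 (unadjusted p = 0.00140, adjusted p = 0.987, edgeR), and it was -0.85 and -0.74 under scaling to the epithelial genes and to Krt18, past the thresholds both times. Without the block it was -1.14 and did not pass (unadjusted p = 0.0967).

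Folr1, a folate receptor that binds the vitamin at the cell surface, was the other gene called. It measured 3.76, 4.63 and 4.19 CPM in WT and 2.72, 2.19 and 1.29 CPM in Adamts18-/- glands. The groups did not overlap, and the log2 fold change was -1.08 (unadjusted p = 0.0140, edgeR), which did not pass without mouse 2 or under either epithelial scaling. The 3 most abundant genes of the list were Xdh, Plin2 and B4galt1, which act in fat globule secretion and lactose synthesis and are also made in other tissues, with log2 fold changes of -0.11, -0.079 and 0.067 that did not pass. The list's median was -0.14.

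On the prolactin-Stat5 axis, 3 of 16 genes were lower past the thresholds, 0 were higher, against 1.84% and 1.17% of all genes, and the median log2 fold change was -0.037. Without mouse 2, 1 gene passed. Prlr, the prolactin receptor, which is also a marker of hormone-sensing luminal cells, measured 334, 340 and 453 CPM in WT glands and 270, 207 and 272 CPM in Adamts18-/- glands. All WT glands were above all Adamts18-/- glands, and the log2 fold change was -0.59 with a standard error of 0.12 (unadjusted p = 0.00607, edgeR). Erbb4, a receptor kinase that can activate Stat5, had a log2 fold change of -0.64 (unadjusted p = 0.0440), and Gata3, a transcription factor of luminal cells, one of -0.50 (unadjusted p = 0.0384). Under scaling to the epithelial genes these 3 did not pass, and Gata3 was at 0.014 under scaling to Krt18. Erbb4 and Gata3 also did not pass without mouse 2 or without mouse 3. Downstream of the receptor, Jak2 had a log2 fold change of 0.12, Stat5a of -0.060 and Stat5b of 0.11, and 0 of these 3 passed. Nfib and Akt1, the most abundant after Prlr, had log2 fold changes of -0.16 and -0.042 and did not pass.

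Of the 12 other luminal progenitor genes, Hey1 was lower and Cd55 higher past the thresholds, against 1.84% and 1.17% of all genes, and the median log2 fold change was -0.14. Without mouse 1 this list had 6 genes past the thresholds, without mouse 2 it had 1, and DESeq2 called 4. Hey1, a Notch target, measured 34.3, 45.3 and 19.0 CPM in WT and 23.8, 28.5 and 8.28 CPM in Adamts18-/- glands, lower in each pair (log2 fold change -0.79, unadjusted p = 0.00413, edgeR). Under scaling to the epithelial genes and to Krt18 it was -0.39 and -0.28 and did not pass. Cd55, a complement regulator on the cell surface, was higher in each Adamts18-/- gland of a pair, with a log2 fold change of 0.34 (unadjusted p = 0.0349) that did not pass without mouse 1, without mouse 2 or on total counts. It was 0.75 under scaling to the epithelial genes, which did not pass, and 0.86 under scaling to Krt18, which did. Notch1 and Ehf, the most abundant besides Cd55, had log2 fold changes of -0.10 and -0.15 and did not pass. For Ehf, an Ets factor of epithelium, the WT and Adamts18-/- glands were at 65.5 and 112 CPM in mouse 1 and at 113 and 58.8 CPM in mouse 2.

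Lcn2 is induced with acute phase genes in inflamed tissue, and of 14 such genes 12 were tested, 0 were lower and 1 was higher past the thresholds, against 1.84% and 1.17% of all genes, with a median log2 fold change of -0.10. The gene called was Nfkbiz, a nuclear regulator of NF-kB target genes, with 45.1, 39.7 and 35.4 CPM in WT and 69.1, 55.2 and 35.9 CPM in Adamts18-/- glands. Its log2 fold change was 0.37 (unadjusted p = 0.0443, edgeR), which did not pass without mouse 1, without mouse 2, on upper quartile scaling or on total counts, and was 0.78 and 0.89 under scaling to the epithelial genes and to Krt18, past the thresholds both times. C3, Hp and Stat3, the most abundant of the list, had log2 fold changes of -0.016, 0.085 and -0.084 and did not pass. In the WT gland of mouse 2, where Lcn2 was at its highest, Lrg1, Cp, Cebpd and Cebpb were also at their highest. C3 and Saa3 were at their lowest there, and all other genes of the list were at their highest in other glands. Lrg1, a secreted leucine-rich glycoprotein, was at 136 and 134 CPM in the WT and Adamts18-/- glands of mouse 2 and at 42.6 to 90.9 CPM in the others, and was the 1 gene of the list called for the mouse (adjusted p = 0.0370, edgeR). Without the block, Prlr and Folr1 still passed the thresholds among the 8 genes called in these 4 lists, and the other 6 did not.

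**Figure D4:**
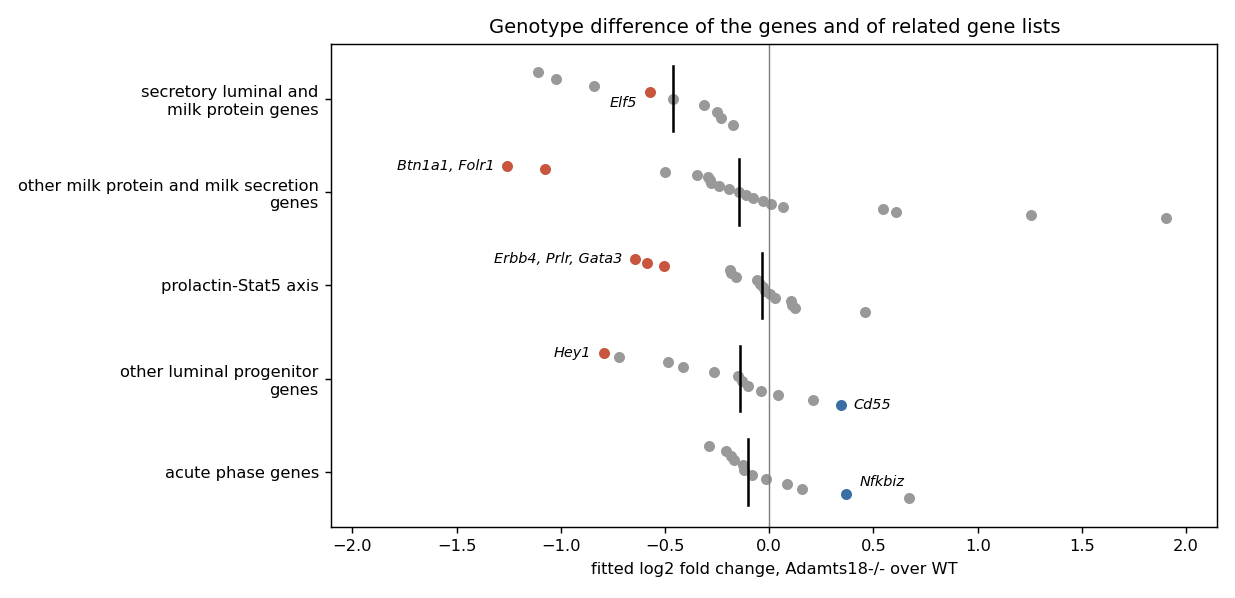
Fitted log2 fold change, Adamts18-/- over WT, of each tested gene (points), with the median of each list (black lines). Red points were lower and blue points higher past the thresholds. The members and 4 related lists are shown; the members' median is -0.46 and those of the lists lie between -0.14 and -0.037.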

How the data were processed

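Total RNA of the 6 samples (engrafted glands per the study's text, sorted GFP+ cells per the labels) was read as single-end 85 bp reads. Per the submitters' processing notes, the authors used bcl2fastq 2.18, TopHat2 2.0.11, featureCounts 1.6.2 and mm9. They deposited raw counts per gene symbol, which were used as deposited, and the strand setting of the counting was not given in the sources used here. Column names gave genotype and mouse, and 0 columns were left unmapped. Counts were filtered (filterByExpr), scaled by TMM and fitted with edgeR 4.0.16 (R 4.3.3; quasi-likelihood test) with genotype and mouse, the latter because both glands of a host were paired by design; deviations from group means correlated within mice (r = 0.512, 0.505 and 0.639). P-values were adjusted over 17345 genes (Benjamini-Hochberg). Those of the genotype set the mean pair difference against the variation left after the mouse term, and do not measure the spread between hosts. Alternatives were DESeq2 1.42.0, limma 3.58.1 (voom), other scalings and filters, and leaving out each mouse. The fit was tested on simulated data. The members, lists and tests were chosen with earlier results of these data known. Named genes were the members, Adamts18 and cell type markers as needed. From each pathway list, the genes past the thresholds or among its 3 most abundant were named. The 5 genes most like Elf5, Csn2 and Lcn2 were also named (Wap did not pass the filter in the paired fit). Jak2, Stat5a, Stat5b, Glycam1, Csn1s1, Lrg1, Cp, Cebpd, Cebpb and Saa3 were named after their values were seen. Within-mouse log2 differences on the library scale and r used a prior count of 2. Differences relative to the epithelial level used no prior count, whereas the shares of all genes beside them did. Of the list genes, 4 stood under older symbols (Expi for Wfdc18, for example).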

Additional observations from a re-analysis of the deposited data

How the results depend on the processing

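Among the members' fold changes, 94 of 116 values under 13 alternatives kept their direction and their side of the thresholds. The count of members past the thresholds, 1 in the paired fit, was 0 with no replicate block, 0 with scaling to 12 epithelial genes, 0 with scaling to Krt18, 0 at an adjusted p under 0.05 and 2 with no filter, where Lalba joined Elf5. Leaving out each mouse gave 0 to 8 members. The members called for the mouse, 0 in the paired fit, were 2 with DESeq2, 3 with scaling to 12 epithelial genes, 6 with scaling to Krt18 and 2 with no filter, and those fits called 20.4%, 7.24%, 14.8% and 4.50% of the genes given an adjusted p. With scaling to 12 epithelial genes the log2 fold changes of Kit, Csn3, Lcn2 and Mfge8 reversed to 0.10, 0.16, 0.24 and 0.17. With scaling to Krt18 those of Kit, Aldh1a3, Csn3, Lcn2, Mfge8 and Gata3 reversed to 0.21, 0.059, 0.27, 0.35, 0.28 and 0.014, while these scalings raised the median of all genes by 0.41 and 0.52. Over all genes edgeR called 319 lower and 203 higher in the paired fit, 125 and 218 with no replicate block, 25 and 1230 with the epithelial scaling and 27 and 6376 with Krt18. The paired edgeR fit had 0 genes at an adjusted p under 0.05 (670 at an unadjusted p under 0.05). At an adjusted p under 0.05 it had 268 without mouse 3 and 0 without mouse 1 or mouse 2, and DESeq2 called 71. Those 268 included Btn1a1 and Hey1. The 71 included Btn1a1, Prlr and Hey1 (adjusted p = 7.99e-07, 0.00623 and 0.00857, DESeq2), which did not pass adjustment in the paired edgeR fit. Of 52 counts for the 4 related lists, 23 moved by over 1.5 times. Depth limits Wap, with 3 reads in all, and Lalba, with 2 to 51 reads per library.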

Other observations

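Glycam1, a mucin of milk that is also made by the high endothelial venules of lymph nodes, was at 357 CPM in the Adamts18-/- gland of mouse 3 and at 0.165 to 2.81 CPM in the other 5 glands. In the Adamts18-/- gland of mouse 3 the 5 B cell markers summed to 540 CPM and the 6 T cell markers to 376 CPM, the highest of the 6 glands in both lists, which elsewhere summed to at most 117 and 141 CPM. The part of lymphoid tissue in the Glycam1 level was not tested. In the same gland, Csn2, Lalba, Elf5, Aldh1a3, Kit and Lcn2 were at their lowest levels. Csn1s1, the alpha-S1 casein gene, was highest in the WT gland of mouse 3, whereas Csn2 was highest in the WT gland of mouse 2.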
